A study of Drosophila melanogaster with 596 samples.

Results

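Potassium channel genes other than slo were followed across crosses of the Drosophila Synthetic Population Resource, a panel of recombinant inbred lines of Drosophila melanogaster. The set was fixed by name and holds 10 of the 7422 genes measured: Sh (CG12348), Shab (CG43128), Shal (CG9262), Shaw (CG2822), eag (CG10952), sei (CG3182), Elk (CG5076), KCNQ (CG33135), SK (CG10706) and Hk (CG43388). These genes gave 42 of the 11064 transcript rows of the value table. Rows of a gene with identical values were taken as 1, which left 25 distinct rows of 9008 in all. Every sample was a pool of up to about 300 heads from females 3 to 5 days old, the F1 progeny of a cross between a line of population A and a line of population B. The mothers and fathers came from subpopulations pA1 and pB2 in 63.4% of the 596 crosses, written pA1xpB2 here, and from pA2 and pB1 in 36.6%, written pA2xpB1. Parents were inbred, whereas the measured females were hybrid, and by the study's methods most had probably mated. No cross carried a transgene or a treatment, and each cross has 1 set of values, so the spread reported is the spread between crosses and no error of a single cross can be given.

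Potassium channels let potassium leave the cell and so return the membrane to rest after an action potential. Sh, Shab, Shal and Shaw encode the pore-forming subunits of the Shaker family of voltage-gated channels, in which Sh and Shal carry fast inactivating currents and Shab and Shaw carry delayed, slowly inactivating ones. The genes eag, sei and Elk form the ether-a-go-go family, and sei is the fly relative of the human HERG channel. KCNQ encodes the fly channel of the slow muscarine-sensitive type, SK encodes a small-conductance channel opened by calcium through calmodulin, and Hk encodes the cytoplasmic beta subunit that binds Shaker channels. Mutations in Sh, eag and Hk are classically known for leg shaking under ether. Hk is thus a subunit and not a pore, and the set does not hold every potassium channel of the fly.

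Values were normal-quantile scores of residuals. Each row was forced onto a normal scale over the crosses, so that every row had a standard deviation between 0.983 and 1.01 and ran from -3.15 to 3.15 at most, and levels could not be compared between genes. For the same reason the tissue label could not be checked by the level of its markers, although 9 of 10 neuron markers and 7 of 12 photoreceptor markers on lists of such genes were measured. Subpopulation had been removed by the authors, and the mean of a distinct channel row differed by at most 0.0263 between pA1xpB2 and pA2xpB1. The authors had also removed the first 10 principal components of all transcripts, and with them variation that many genes shared. What the values retain is which crosses stood high or low for each gene in the remainder, relative to the other crosses. The question put to them was therefore which channel genes, and which other genes, were high and low in the same crosses. Likeness is given as Pearson's r. A gene with several distinct rows is represented by the row most like its other rows. A pair of channel genes was called correlated when limma's adjusted p was under 0.05 in the fits on both genes, with Benjamini-Hochberg adjustment over all rows of other genes. Because the samples are pooled heads, fewer cells of a type and less RNA per cell cannot be told apart in any of the results.

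Of the 45 pairs of channel genes, 12 (26.7%) were correlated, and 22.3% of all rows of other genes passed the same threshold in the fit on a channel gene. The share among the channel genes was thus near the background. Within it, SK, Sh and KCNQ tended to stand high in the same crosses, and Shaw tended to stand low where those 3 stood high. The 9 positive pairs made 20% of all pairs, beside 12.3% of rows in the background, and the 3 negative pairs made 6.67%, beside 10%. The other 33 pairs had r between -0.10 and 0.10.

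**Figure D1:**
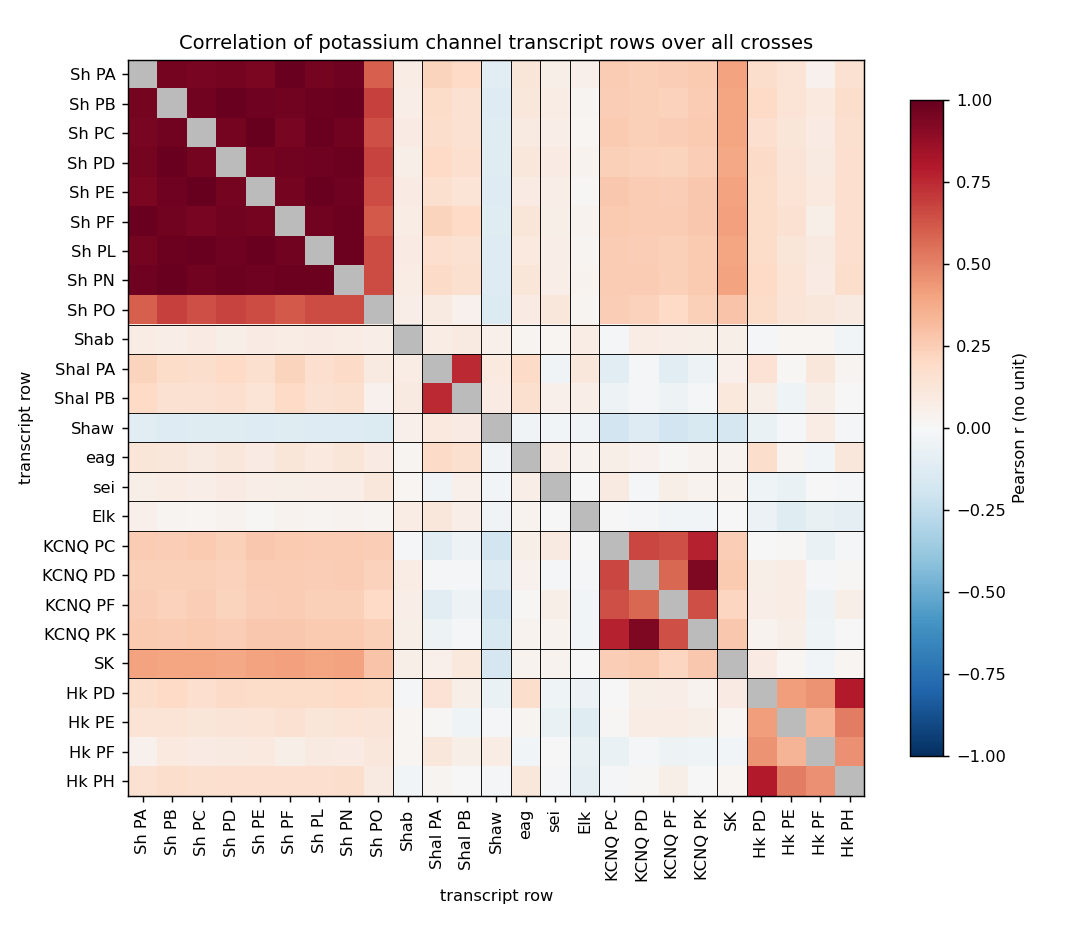
Pearson's r over 596 crosses between the 25 distinct transcript rows of the 10 potassium channel genes, with thin lines between genes and grey cells on the diagonal. Rows of 1 gene form the dark blocks, and outside them the strongest colour lies between the Sh rows and SK (r = 0.40 for the representative row of Sh).

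Sh and SK formed the strongest pair. Across all 596 crosses r was 0.40 (95% interval 0.33 to 0.46; limma adjusted p = 1.54e-18), and Spearman's rho was 0.39. A two-sided permutation test of r and of rho with 100000 resamples gave p = 1e-05 for each, the smallest it can give. The scores of both genes had the same sign in 379 of 596 crosses (63.6%), in 64.6% of pA1xpB2 and in 61.9% of pA2xpB1. The r was 0.39 in pA1xpB2 and 0.41 in pA2xpB1. Leaving out the 2 crosses with the most extreme Sh scores gave 0.39. The r fell to 0.17 (limma adjusted p = 0.00392) with 10 further principal components removed. SK was the gene with the largest r with Sh among all other genes measured, and Sh ranked 3 among all genes for SK when each gene was represented by its best row. Both genes lie on the X chromosome, with 808 measured genes between them.

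KCNQ completed the group. Its r with SK was 0.27 (95% interval 0.19 to 0.34; limma adjusted p = 2.80e-09), with 0.28 in pA1xpB2 and 0.24 in pA2xpB1. Its r with Sh was 0.26 (95% interval 0.18 to 0.33; limma adjusted p = 2.67e-08), with 0.28 in pA1xpB2 and 0.20 in pA2xpB1. Scores of KCNQ and SK had the same sign in 58.9% of crosses, 59.8% in pA1xpB2 and 57.3% in pA2xpB1. For Sh and KCNQ this share was 60.2%, with 64.6% in pA1xpB2 and 52.8% in pA2xpB1. KCNQ lies on arm 2R, so this pairing crossed chromosomes. The permutation p was 1e-05 for both pairs, for r and for rho.

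Shaw went the other way. Its r was -0.17 with SK (95% interval -0.25 to -0.09; limma adjusted p = 0.000438), -0.15 with KCNQ (95% interval -0.23 to -0.07; limma adjusted p = 0.00179) and -0.13 with Sh (95% interval -0.20 to -0.05; limma adjusted p = 0.0128). In the separate crosses the r with SK was -0.19 in pA1xpB2 and -0.14 in pA2xpB1. The r with KCNQ was -0.15 in pA1xpB2 and -0.16 in pA2xpB1, and the r with Sh was -0.14 in pA1xpB2 and -0.10 in pA2xpB1. Scores of Shaw and SK had the same sign in 45% of crosses. These were the 3 negative pairs among the 12. With 10 further principal components removed from the values, no pair with Shaw or KCNQ passed, and Shaw and SK had r = 0.0067.

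**Figure D2:**
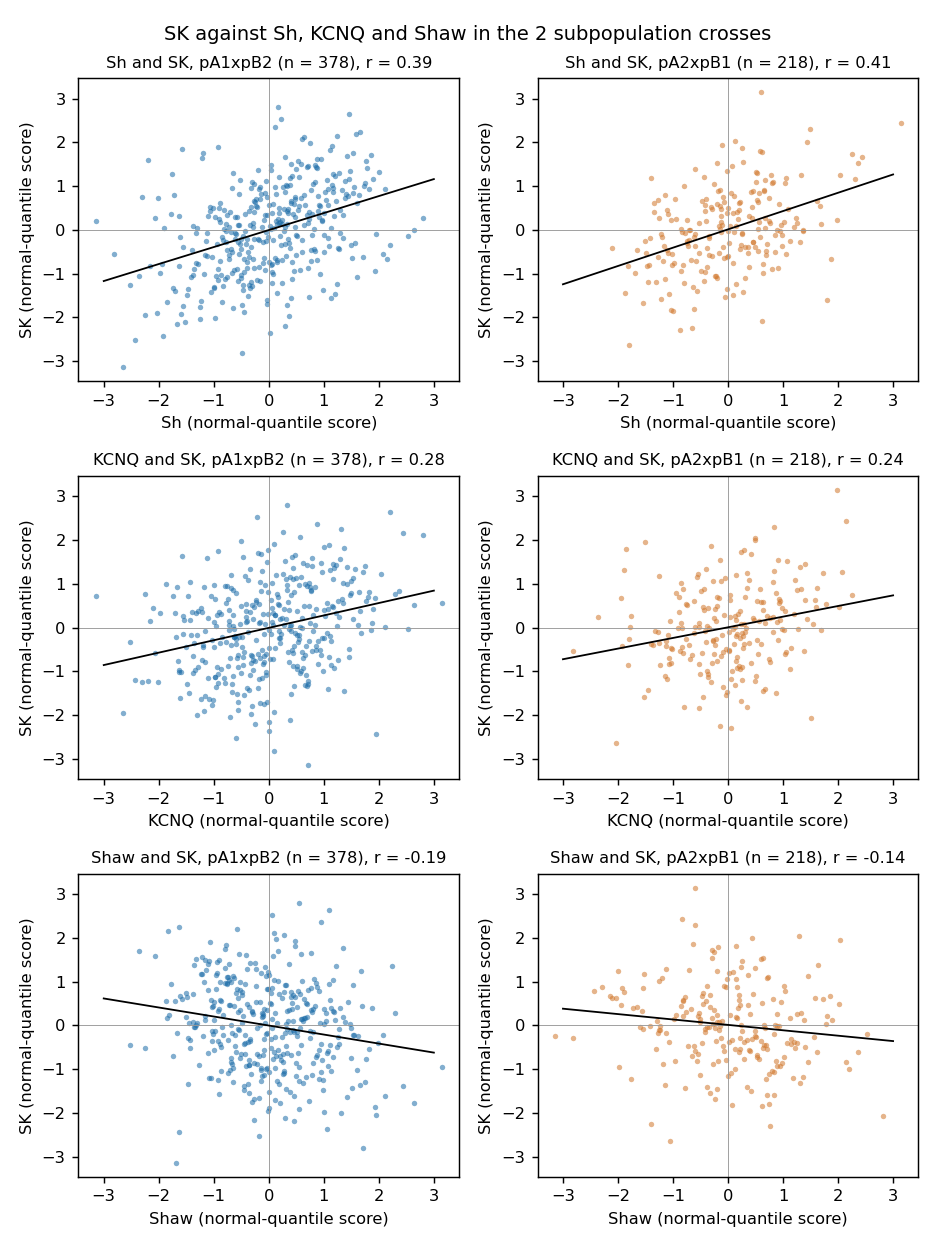
Scores of SK (vertical axes) against those of Sh, KCNQ and Shaw (horizontal axes), 1 point for each cross, with pA1xpB2 at the left, pA2xpB1 at the right and a least-squares line. The clouds overlap widely in both columns: r was 0.39 in pA1xpB2 and 0.41 in pA2xpB1 for Sh, 0.28 in pA1xpB2 and 0.24 in pA2xpB1 for KCNQ, and -0.19 in pA1xpB2 and -0.14 in pA2xpB1 for Shaw.

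Shal varied with Sh (r = 0.18, 95% interval 0.11 to 0.26; limma adjusted p = 9.52e-05) and with eag (r = 0.19, 95% interval 0.11 to 0.27; limma adjusted p = 0.000135). Scores of Shal and Sh had the same sign in only 51% of crosses, 48.7% in pA1xpB2 and 55% in pA2xpB1, and rho was 0.16. Those of Shal and eag had the same sign in 57.4% of crosses. For Shal and Sh the r was 0.19 in pA1xpB2 and 0.17 in pA2xpB1, and for Shal and eag it was 0.21 in pA1xpB2 and 0.16 in pA2xpB1. Hk, whose product binds the Sh channel, had r = 0.18 with Sh (95% interval 0.10 to 0.25; limma adjusted p = 0.000894), 0.22 in pA1xpB2 and 0.07 in pA2xpB1. With 10 further principal components removed, r was 0.02 for Shal and Sh and -0.05 for Shal and eag, and neither passed, whereas Sh and Hk did (r = 0.13, limma adjusted p = 0.0409). The subunit and its pore were thus a correlated pair, though a weaker one than Sh and SK in r. The 3 weakest pairs that passed the threshold were Shal and Elk (r = 0.11, limma adjusted p = 0.0399), eag and Hk (r = 0.11, limma adjusted p = 0.0467) and Sh and eag (r = 0.11, limma adjusted p = 0.0373). In these 3 the r was 0.16 to 0.18 in pA1xpB2 and -0.01 to 0.02 in pA2xpB1, and none passed with 10 further components removed.

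Shab and sei had no correlated partner in the set. The delayed rectifier Shab had r between -0.02 and 0.08 with the other 9 channel genes, and sei had r between -0.04 and 0.07. They also had the smallest shares of linked rows of the 10 genes, with 13.1% of rows of other genes correlated with Shab and 8.33% with sei. With 1 row for each gene the share was 13.1% for Shab and 8.06% for sei, and Hk with 12% lay below Shab. Within the ether-a-go-go family no pair passed: r was 0.07 for eag and sei, 0.04 for eag and Elk, and -0.01 for sei and Elk. Each count of correlated channel genes is read beside the share of all rows. Sh had 6 of 9 correlated channel genes and 30.9% of all rows, Shal had 3 of 9 and 38.3%, Shaw 3 of 9 and 26.4%, and SK 3 of 9 and 32%. KCNQ had 3 of 9 and 26.8%, eag 3 of 9 and 18.7%, Hk 2 of 9 and 13.4%, and Elk 1 of 9 and 15.2%.

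None of the 45 pairs differed between pA1xpB2 and pA2xpB1 by limma's test of the interaction of score and subpopulation cross (smallest adjusted p = 0.18). Unadjusted p was under 0.05 for 3 pairs, the smallest 0.0195, for eag and Hk. Of the 12 correlated pairs, 11 had the same sign in both subpopulation crosses, and the exception was eag and Hk (0.18 in pA1xpB2 and -0.01 in pA2xpB1).

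Other potassium channels on a list of 11 such genes, 9 of them measured, were linked to the 10 genes about as often as genes at large. Of the 90 combinations, 12 were positive and 6 negative (20%), beside 20.9% over all genes. KCNQ was the exception in number. It was correlated with 7 of the 9, where 23.6% of all genes were correlated with it (10.5% positive and 13.1% negative). Of the 7, 5 were negative: the leak channel Task7 (r = -0.18), SLO2 of the slo family (-0.17), the inward rectifiers Irk3 (-0.16) and Irk1 (-0.12), and slo (-0.11), the large-conductance calcium-activated channel. The leak channels Ork1 (0.15) and Task6 (0.10) were positive. The median r of KCNQ with the 9 genes was -0.11, beside -0.01 over all genes. SLO2 is also a neighbour of KCNQ on arm 2R, 7 measured genes away. Shaw was positive with 4 of the 9, beside 14.5% of all genes: Task7 (0.14), slo (0.12), SLO2 (0.11) and Irk3 (0.10). These 4 were all negative with KCNQ. Task6 was positive with 6 of the 10 genes, with the largest r for Shal (0.19; limma adjusted p = 4.95e-05).

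Sodium, calcium and mixed cation channels were correlated in 30 of 90 combinations, 22 positive and 8 negative (33.3%), beside 20.9% over all genes. The voltage-gated sodium channel para, which drives the upstroke of the action potential, was positive with Sh (r = 0.19; limma adjusted p = 6.26e-05), SK (0.16; 0.000644), KCNQ (0.14; 0.00536) and Shaw (0.10; 0.0495). The r of para and Sh was 0.22 in pA1xpB2 and 0.12 in pA2xpB1, and that of para and SK was 0.14 in pA1xpB2 and 0.20 in pA2xpB1. The sodium leak channel narrow abdomen, na, was positive with Elk (r = 0.21; limma adjusted p = 7.82e-05), Shal (0.19) and eag (0.18), and its auxiliary subunit unc80 with Shal (0.19), Hk (0.16), Shab (0.12) and Sh (0.10). The hyperpolarisation-activated channel Ih divided the set: it was positive with Sh (0.13), Shab (0.13), Hk (0.12) and KCNQ (0.11) and negative with Shal (-0.16) and eag (-0.13). Calcium channel subunits were mixed as well. Ca-beta was positive with Shaw (0.18) and Hk (0.16) and negative with Elk (-0.13), and the T-type subunit Ca-alpha1T was negative with SK (-0.14) and KCNQ (-0.13).

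Genes that bind or regulate channels were correlated in 31 of 110 combinations, 23 positive and 8 negative (28.2%), beside 20.9% over all genes. The product of quiver, qvr (also called sleepless), raises the level and activity of the Shaker channel. It had r = 0.19 with Sh (limma adjusted p = 2.94e-05), 0.19 with SK, 0.15 with Shaw and 0.11 with KCNQ. CaMKII, the calcium and calmodulin-dependent kinase, was positive with SK (0.18), Sh (0.17) and Shal (0.11). Calmodulin itself, Cam, was negative with SK (-0.10; limma adjusted p = 0.0372), sei (-0.18) and eag (-0.12) and positive with KCNQ (0.11). Fmr1, the RNA-binding protein of the fragile X gene, had r = 0.25 with Shal (limma adjusted p = 1.77e-08), with 0.22 in pA1xpB2 and 0.31 in pA2xpB1, and did not pass with any of the other 9 genes. The RNA-binding protein elav, which is also on the neuron marker list, had r = 0.25 with Shaw (limma adjusted p = 5.79e-08) and was negative with SK (-0.23; limma adjusted p = 7.66e-07), Elk (-0.14), Shal (-0.13) and Sh (-0.11).

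The scaffold gene discs large, dlg1, whose product clusters Shaker channels at the neuromuscular synapse, lies on the X chromosome with 425 measured genes between it and Sh, and its r with Sh differed between the subpopulation crosses. It has 9 distinct rows, of which PC and PF stood apart. With Sh, the PF row had r = 0.41 in pA1xpB2 (95% interval 0.32 to 0.49) and -0.06 in pA2xpB1 (95% interval -0.19 to 0.08). The PC row had r = 0.42 in pA1xpB2 and -0.03 in pA2xpB1. The interaction had limma adjusted p = 0.000186 for either row and exceeded 0.2 for each of the other 7, and 17 rows (0.154%) passed this test with Sh in all. With SK, the PC row had r = 0.46 in pA1xpB2 and 0.13 in pA2xpB1 (interaction, limma adjusted p = 0.0314), and 5 rows (0.0452%) passed in all. With KCNQ, both rows were positive in both subpopulation crosses. There the PC row had r = 0.31 in pA1xpB2 and 0.35 in pA2xpB1 (interaction, limma adjusted p = 0.983). The PF row had r = 0.29 in pA1xpB2 and 0.36 in pA2xpB1 (interaction, limma adjusted p = 0.971). With Shal, all 9 dlg1 rows passed (interaction adjusted p between 0.000139 and 0.00664), with r from 0.12 to 0.35 in pA1xpB2 and from -0.23 to 0.03 in pA2xpB1. For Shal this was no small set, because 547 rows (4.95%) differed between the subpopulation crosses, and with eag 1.96% of rows did. Shab (0.0542%) and Elk (0.0452%) had few such rows, and over the 10 genes 0.721% of rows passed. No row passed the interaction with Shaw, sei, KCNQ or Hk in limma's fit, in which 1108, 720, 1071 and 1143 rows had an unadjusted p under 0.05. These dlg1 rows were singled out after their values were seen, and with 10 further principal components removed the interaction had adjusted p = 0.0853 for PF and Sh, 0.244 for PC and SK, and 0.0764 for the PL row and Shal. The rows that passed with Shal then numbered 46, and with eag 0 passed in limma's fit, in which 1121 had an unadjusted p under 0.05. Without the 30 crosses with the largest absolute median, the interaction of PC and SK had adjusted p = 0.0722.

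**Figure D3:**
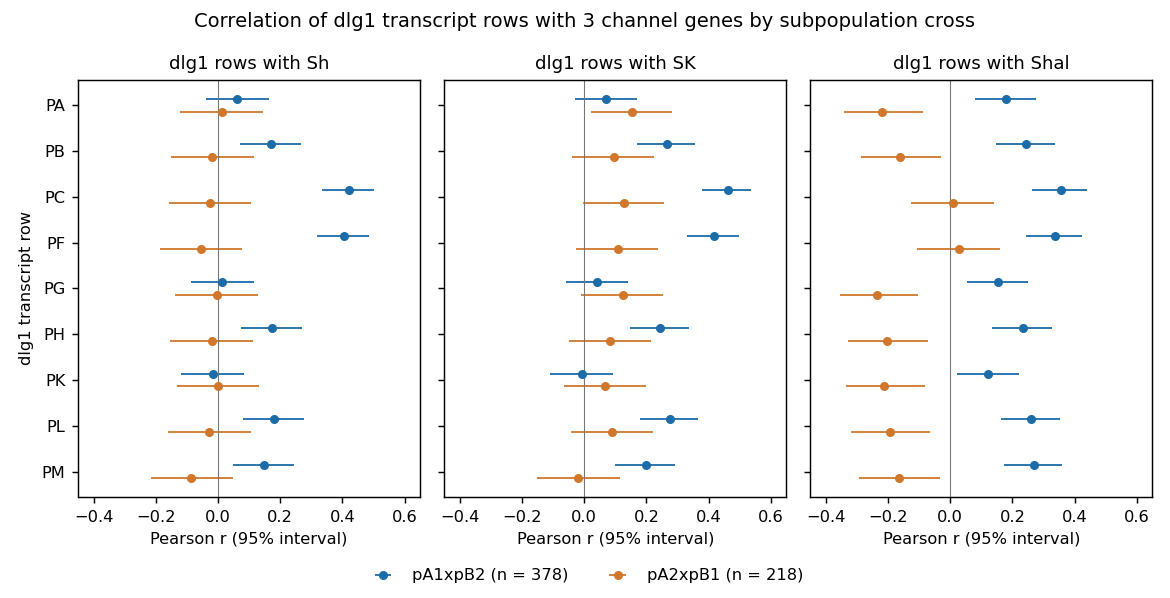
Pearson's r of each of the 9 distinct dlg1 transcript rows with Sh, SK and Shal, in pA1xpB2 and pA2xpB1, with 95% intervals. Rows PC and PF with Sh lie at 0.42 and 0.41 in pA1xpB2 and near 0 in pA2xpB1, and with Shal all 9 rows lie higher in pA1xpB2.

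Synaptic vesicle and active zone genes were correlated in 40 of 140 combinations, 23 positive and 17 negative (28.6%), beside 20.9% over all genes. The largest r was that of unc-13, which primes synaptic vesicles for release, with Sh (r = 0.35; limma adjusted p = 1.90e-14), and it was close in the subpopulation crosses (0.35 in pA1xpB2 and 0.36 in pA2xpB1). The same gene had r = 0.27 with SK. Neuron markers were correlated in 34 of 90 combinations, 18 positive and 16 negative (37.8%), beside 20.9% over all genes, and did not move in 1 direction with any channel gene that had several of them. Sh had 3 positive and 3 negative of 9 (28.2% of all genes in either direction), SK 2 and 4 (29.5%), Shaw 4 and 1 (24.4%), and KCNQ 2 and 3 (23.6%). Shal (37.5%) and Elk (14.9%) had 2 and 2 each. Bruchpilot, brp, of the active zone was negative with Sh (-0.23), SK (-0.22) and KCNQ (-0.16) and positive with Shaw (0.12), whereas neuronal synaptobrevin, nSyb, was positive with KCNQ (0.21), eag (0.13), Sh (0.11) and SK (0.11). The microtubule-associated protein gene futsch had r = -0.31 with Shal (limma adjusted p = 1.64e-12) and -0.18 with eag.

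Markers of other cell types moved with some of the genes. Muscle markers were correlated in 34 of 120 combinations (28.3%), beside 20.9% over all genes, and 29 of them were negative. For eag, 8 of 12 were negative with a median r of -0.15, beside 8.46% of all genes negative and a median of 0.00079, led by sallimus, sls, a titin-like protein (r = -0.29; limma adjusted p = 7.59e-10), paramyosin, Prm (-0.24), and tropomyosin 2, Tm2 (-0.20). Shal had 6 of 12 negative (median -0.09), beside 13% of all genes, and Sh had 5 of 12 (median -0.09), beside 12%. Photoreceptor markers were correlated in 25 of 70 combinations, 13 positive and 12 negative (35.7%), beside 20.9% over all genes. They were positive with KCNQ in 6 of 7 cases, with a median r of 0.14, beside 10.5% of all genes positive. The phototransduction scaffold inaD led them (r = 0.32; limma adjusted p = 1.51e-12), before the phospholipase norpA (0.23) and the ultraviolet opsin Rh3 (0.20). Photoreceptor markers were also positive with Hk in 3 of 7 cases and negative in 0 (median r 0.07), beside 5.19% of all genes positive. They were negative in 3 of 7 cases with Elk, beside 4.73% of all genes, and in 3 of 7 with sei, beside 2.87%. Glia markers (15.7% of 70 combinations), fat body markers (13.3% of 60) and hemocyte markers (27.5% of 40) had fewer measured members, beside the same 20.9%, and the largest count was 4 of 4 hemocyte markers with Sh, 1 positive and 3 negative, beside 28.2% of all genes. A fit with the mean of the neuron markers as covariate was added after the data were seen. In it 11 of the 12 channel pairs passed and 1 pair was gained, and r of Sh and SK was 0.39. Because the neuron markers went in both directions with the channel genes, their mean cannot stand for the number of neurons. The part of neurons and of the other cell types in the channel correlations was not tested.

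Beyond the lists, the genes most like each channel gene are given by the best row of each gene. SK was most like CG11155 (r = 0.45 at its best row and 0.32 at its representative row; limma adjusted p = 1.07e-23 at the best) and Ekar (0.41), both genes for kainate-type glutamate receptors, and, apart from Sh, the kinase gene Dyrk3 (0.40), and these 3 genes lie on chromosome 4. Sh was most like l(2)k09913 (0.36), PsGEF (0.35) and unc-13 (0.35), apart from SK. KCNQ had the largest r of any channel gene, with CG8419 (r = 0.50; limma adjusted p = 6.56e-31), and CG7220 (0.44) and CG15118 (0.43) followed. The r with CG8419 was 0.45 in pA1xpB2 and 0.60 in pA2xpB1. Shal was most like CG1288 (0.48), the deadenylase gene twin (0.44) and CG2528 (0.43). Shab was most like CG11537 (0.40) and CG17746 (-0.36), before Fife (0.31), an active zone scaffold. Shaw was most like CG43707 (0.36), the nuclear receptor gene Hr39 (0.35) and the transcription factor gene fkh (0.34).

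In the ether-a-go-go family the leading values were lower. The gene eag was most like CG34155 (0.30), the flotillin gene Flo2 (-0.30) and the exosome nuclease gene Rrp6 (-0.30). Among the genes most like Elk were the focal adhesion kinase gene Fak (0.28) and Zir (0.28), and sei was most like the cytochrome c oxidase subunit gene cype (0.25), CG11141 (-0.24) and the chloride channel gene pHCl-1 (0.24). Hk was most like PIP82 (0.30), the clock gene per (0.29) and Slob (0.28), whose product binds the Slowpoke channel. The r of Hk and per was 0.39 in pA1xpB2 and 0.11 in pA2xpB1, a difference that did not pass limma's test of the interaction (adjusted p = 0.29).

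Chromosome 4, the small dot chromosome, has 75 measured genes, and SK, an X-linked gene, was positive with 58 of them (77.3%) and negative with 2, beside 15.3% of all genes positive and 14.2% negative. The median r was 0.18, and 16 of the 50 genes most like SK lie there. They include the transcription factor genes ci (0.32) and sv (0.34), the activin ligand gene Actbeta (0.33), Cadps (0.32), which acts in release from dense core vesicles, and the calcium pump gene PMCA (0.29). Sh was positive with 33 of the 75 (44%), and Shaw was negative with 35 (46.7%), beside 16.2% of all genes positive with Sh and 9.82% negative with Shaw. The other 7 channel genes had at most 16 positive and 16 negative. KCNQ was positive with 16 (21.3%), beside 10.5% of all genes, and sei with 13 (17.3%), beside 5.19%. Shal was negative with 16 (21.3%), beside 13%, and Hk with 13 (17.3%), beside 6.82%. Elk and eag were positive with 10 each (13.3%), beside 10.2% for Elk and 9.41% for eag. Positive shares were below those of all genes for Shal (18.7% and 24.5%), Shab (2.67% and 7.48%) and Hk (0% and 5.19%). In the separate fits SK was positive with 50 genes in pA1xpB2, beside 12.9% of all genes, and with 23 in pA2xpB1, beside 2.09%. Sh was positive with 27 in pA1xpB2 (13% of all genes) and 12 in pA2xpB1 (1.78%), and Shaw was negative with 20 in pA1xpB2 (8.03%) and 10 in pA2xpB1 (1.79%). With 10 further principal components removed, SK was positive with 28 (37.3%), beside 2.24% of all genes, and Sh with 16, beside 4.54%. Shaw was then negative with 0 of the 75 in limma's fit, beside 0.162% of all genes, a share too low for the 0 to show a loss. Its median r with the 75 genes was 0.0092, beside -0.097 before. Adding the mean score of the chromosome 4 genes to the fits left r of Sh and SK at 0.34 (limma adjusted p = 8.27e-12) and brought that of Shaw and SK to -0.10 (adjusted p = 0.11) and that of Sh and Shaw to -0.09 (adjusted p = 0.13). This pattern was chosen after its values were seen and is a description.

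**Figure D4:**
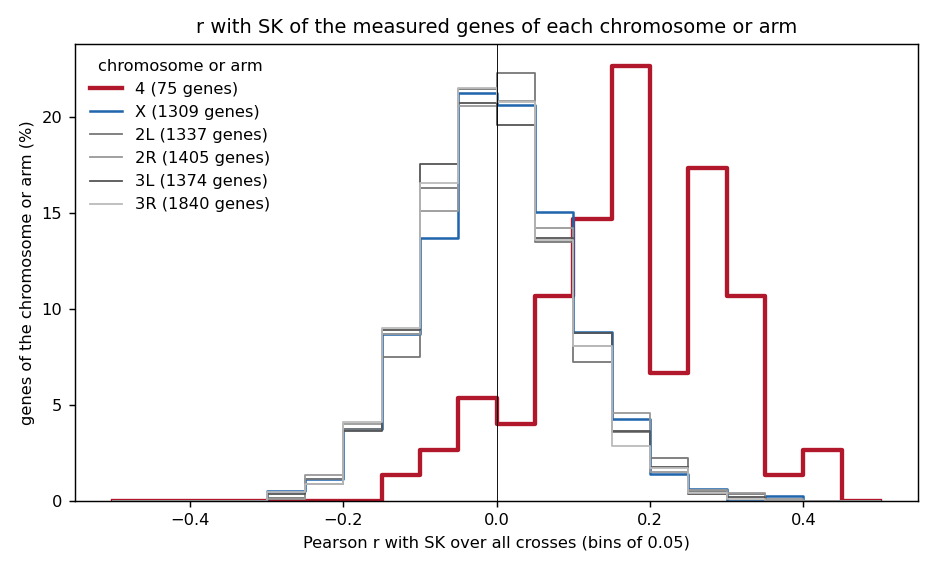
Share of the measured genes of each chromosome or arm (vertical axis, percent) by their Pearson's r with SK over 596 crosses (horizontal axis, bins of 0.05), without SK itself. The 75 genes of chromosome 4 centre on 0.18, to the right of the X chromosome and the 4 large arms.

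Genes beside a channel gene were correlated with it more often than genes at large. Of the 200 neighbours, the 10 nearest measured genes on either side of each of the 10, 75 passed (37.5%), beside 20.9% of all genes, with 37 positive and 38 negative. The excess was widest for Shab (40% of neighbours and 13.1% of all genes), Shaw (50% and 24.4%) and Elk (40% and 14.9%), and it was slight for Shal (40% and 37.5%) and Sh (35% and 28.2%). The shares were 40% and 17.9% for eag, 40% and 23.6% for KCNQ, 45% and 29.5% for SK, 25% and 12% for Hk, and 20% and 8.06% for sei. For Shab, the neighbours CG11537, 8 genes away, and Fife, 9 genes away, were also 2 of its 3 leading genes, and AhcyL1 (0.30), the mitochondrial ribosomal protein gene mRpS35 (-0.30) and Non2 (-0.27) lay between 3 and 5 genes away. For Shaw, its leading gene CG43707 lies 2 genes away, and CG10019 (0.28), the transcription factor genes Drgx (0.27) and bowl (0.25) and the scavenger receptor gene Sr-CI (0.25) were further neighbours. Flo2 lies 3 genes from eag. Beside Sh, the adjacent measured gene on one side, Vps4 of membrane sorting, had r = -0.22 (limma adjusted p = 2.86e-06), and CG6867 on the other side, which overlaps Sh, had r = 0.07 (limma adjusted p = 0.20). The troponin I gene wupA, 9 genes from Sh, had r = -0.11. Other neighbours that overlap a channel gene in the reference annotation passed: CG18011 (-0.14) and mlt (0.16) overlap KCNQ and gammaSnap1 (0.14) overlaps sei, and probes for such genes may not measure them apart.

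**Figure D5:**
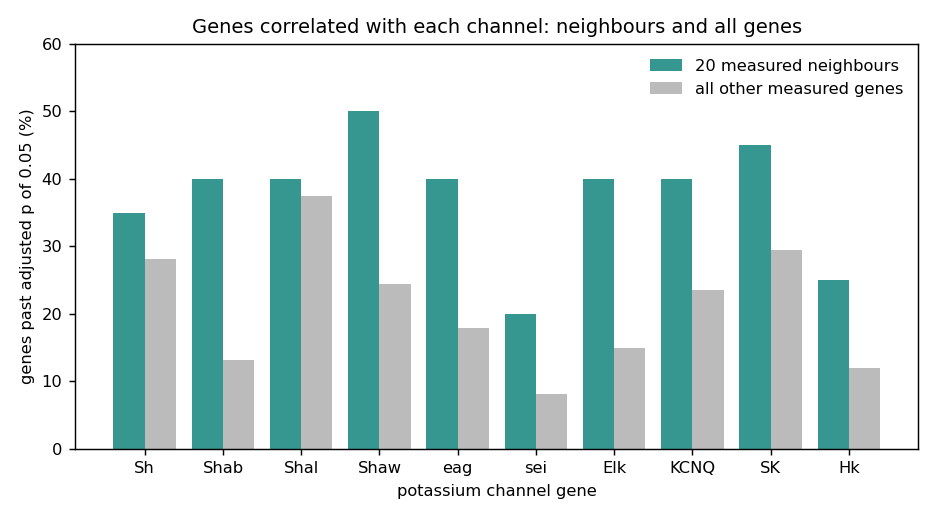
Percent of genes correlated with each channel gene (limma adjusted p under 0.05) among its 20 nearest measured genes (green) and among all other measured genes (grey). The green bar is the higher in all 10 genes, by most for Shab, Shaw and Elk and by least for Shal.

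Transcript rows of a gene share probes and were not all alike. For Sh, 8 of the 9 distinct rows had r of 0.94 or more with each other, and PO was the exception, with r from 0.60 to 0.68 with the others. PO was correlated with 33.6% of rows of other genes. It had r = 0.29 with SK and 0.24 with KCNQ, and its r with unc-13 was 0.11, beside 0.35 for the representative row PB. The difference of the PO and PB scores was itself correlated with 1255 rows (11.4%), of which unc-13 was the first (r = -0.31; limma adjusted p = 7.45e-10). The Shal rows PA and PB had r = 0.75, with 0.68 in pA1xpB2 and 0.84 in pA2xpB1. In the fit on PB, Sh (0.16), eag (0.16) and SK (0.10) passed, and so did 28.6% of all rows. The difference of PB and PA was correlated with 1693 rows (15.3%).

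KCNQ rows had r between 0.58 and 0.94 with each other, and PC, PD and PF were correlated with 25.7%, 26.2% and 25.8% of rows of other genes. All 4 were positive with Sh and SK and negative with Shaw, with r from 0.23 to 0.26 for Sh, 0.21 to 0.27 for SK and -0.19 to -0.13 for Shaw. PF differed from the representative row PK in its r with several genes near KCNQ, and the cause was not tested. The synaptobrevin gene Syb, 4 measured genes from KCNQ, had r = -0.42 with PF (limma adjusted p = 8.27e-21) and -0.07 with the representative row PK, and the tumour necrosis factor ligand gene egr, 10 genes away, had r = -0.17 with PF and 0.13 with PK. The difference of PF and PK was correlated with 1.29% of rows, led by Syb (r = -0.41; limma adjusted p = 2.95e-19), CG12129, egr and CG12744, which lie within 33 measured genes of KCNQ.

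Hk rows were the least alike, with r between 0.34 and 0.79, and their partners were not the same. Rows of other genes were correlated in 22.1% of cases with PD, 14.7% with PE and 21.7% with PF. In the fit on each row, PD passed with Sh (0.20), eag (0.17) and Shal (0.14), and PE with Sh (0.14) and negatively with Elk (-0.12). PF passed with Shal (0.11; limma adjusted p = 0.0283) and fell just short with Sh (0.10; limma adjusted p = 0.056). The representative row PH passed with Sh and eag. The clock gene per was among the 3 leading genes of PF (r = 0.38; limma adjusted p = 8.18e-17), PD (0.33) and PH (0.29), and another clock gene, cwo, was also among them for PF (0.31). The homeobox gene oc led for PE (0.33). The difference of PD and PH was correlated with 2842 rows (25.7%), that of PF and PH with 1130 (10.2%) and that of PE and PH with 755 (6.83%). Which channel genes passed the threshold with Hk thus changed with the row that stood for it. The fits on the differences also held the channel genes, but their values there are not given here. A pass with only some rows is therefore not reported as a difference between rows.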

How the data were processed

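Heads of F1 females from 596 crosses were profiled by the authors on NimbleGen expression arrays. The deposited values are scores: the authors corrected background and quantile-normalized with the oligo package, kept probes that matched coding sequence exactly, dropped those with several known variants or with a single variant that affected the signal, summarised transcripts by RMA, averaged near-identical transcripts of a gene, removed subpopulation and leading principal components, and placed each transcript on normal quantiles. Levels and depth are therefore unknown, and with arrays the number of crosses limits the precision.

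Crosses were grouped by the parental line labels. Every transcript row of other genes was fitted on the representative row of each channel gene with limma 3.58.1 in R 4.3.3, with Benjamini-Hochberg adjustment over all rows, and interactions with subpopulation cross were tested in the same way. Permutation tests of r used 100000 resamples. The members and gene lists were chosen with earlier results of these data known. Genes named are the 3 most like each channel gene, list members and neighbours past the threshold, with exceptions stated as chosen after their values were seen. A gene that this rule names is not reported here. Tested on simulated data of 11064 rows, the fit recovered 74 of 100 linked rows at r = 0.15 and 100 of 100 at r = 0.3. Gene names came from the RefSeq table of Release 6, and its start and end positions were used to order genes along a chromosome and to find overlaps. Alternatives were rank correlation, each subpopulation cross alone, 10 further principal components, covariates, 30 crosses left out and other handling of rows.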

Additional observations from a re-analysis of the deposited data

Results flagged for a closer look

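Correlations with other genes that differed between the subpopulation crosses, by limma's test of the interaction, were looked at again, and their causes were not tested. Sh and the PF row of the scaffold gene dlg1 had r = 0.406 in pA1xpB2 and -0.0552 in pA2xpB1 (limma adjusted p = 0.000186). SK and the PC row of dlg1 had r = 0.461 in pA1xpB2 and 0.128 in pA2xpB1 (limma adjusted p = 0.0314).

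For Shal, the lipophorin gene apolpp had r = 0.24 in pA1xpB2 and -0.163 in pA2xpB1 (limma adjusted p = 0.000825), and the synaptic calcium sensor gene Syt1 had r = 0.205 in pA1xpB2 and -0.29 in pA2xpB1 (limma adjusted p = 3.33e-05). For eag, the netrin gene NetB had r = 0.317 in pA1xpB2 and 0.00547 in pA2xpB1 (limma adjusted p = 0.0131), and CG11593 had r = 0.258 in pA1xpB2 and -0.199 in pA2xpB1 (limma adjusted p = 0.00063). Shab and Dgp-1 had r = 0.316 in pA1xpB2 and -0.0494 in pA2xpB1 (limma adjusted p = 0.0246). Elk and mthl3 had r = -0.121 in pA1xpB2 and 0.324 in pA2xpB1 (limma adjusted p = 0.000369).

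With 10 further principal components removed, the interaction kept an adjusted p under 0.05 for Shab and Dgp-1 (0.00285) and for Elk and mthl3 (0.000851). It did not for Sh and dlg1 (0.0853), SK and dlg1 (0.244, and 0.0722 without the 30 crosses with the largest absolute median), Shal and Syt1 (0.21), Shal and apolpp (0.71), eag and CG11593 (0.174) or eag and NetB (0.341).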

How the results depend on the processing

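The count of correlated channel pairs was 12 and fell to 2 with the pA2xpB1 crosses alone and to 2 with 10 further principal components removed. The share of rows of other genes correlated with a channel gene was 22.3%, against 5% with pA2xpB1 alone and 4.37% with 10 further components removed. Under the other alternatives the pair count was between 10 and 13. The covariate fits for neuron markers and chromosome 4 were chosen after seeing the data. The pA2xpB1 fit holds fewer crosses, and the cause of the change with further components was not tested. Signs reversed for eag and Hk (r = -0.011 with pA2xpB1 alone), Shal and eag (-0.053 with further components removed) and Shaw and SK (0.0067 with further components removed). Sh and SK passed under each of 10 alternatives, with r between 0.17 and 0.41. No paired analysis was possible because the crosses are of different lines and the replicate numbers only name them in order.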
